A study of Sordaria macrospora with 8 samples.

Results

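The regions described here are H3K56ac peaks of the *Sordaria macrospora* mutant Δasf1 that each run across 2 or more separate wild-type peaks. H3K56ac is histone H3 acetylated at lysine 56. A Δasf1 peak was taken when at least 2 wild-type peaks each overlapped it by 1 bp or more, and peaks starting above position 6300000 of chromosome 2, where the rRNA repeats lie, were left out. This gave 610 of the 7107 Δasf1 peaks, or 8.58% (95% Wilson interval 7.95 to 9.26%), and they joined 1267 different wild-type peaks, which were 17.1% of the 7426 in the wild-type list. Of the stretches between neighbouring wild-type peaks, called gaps below, 670 were filled in this way.

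ASF1 is a chaperone that hands histones H3 and H4 to the machineries that build nucleosomes. In budding yeast it presents newly made H3 to the acetyltransferase RTT109, which sets the K56 mark. Lysine 56 lies in the globular part of H3, where DNA enters and leaves the nucleosome. The mark is associated with freshly deposited nucleosomes behind the replication fork, with nucleosome exchange at active genes and with the response to DNA damage.

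The samples were mycelium of a Δasf1 strain, in which the asf1 gene is deleted, and of the wild type. Each strain gave 2 immunoprecipitated and 2 input samples. Δasf1 was grown for 3 days and the wild type for 2 days, both at 27 °C in liquid complete medium under constant light, because the mutant grows more slowly. Cross-linking was with 1% formaldehyde for 15 min, and micrococcal nuclease was used at 230 U/ml over 105 min to cut the chromatin. The Δasf1 strain also carries a duplication of parts of chromosome 2, so the deletion and the duplication cannot be told apart in a comparison of whole strains, nor can the deletion and the longer growth.

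The values come from 1 deposited peak list per strain. Both lists are labelled as pooled, but all peak names of a list carry a single library code, so it is not certain that a list stands for both replicates. No value per replicate and no read depth was available, and no test between the strains could be made. The intervals given are 95% Wilson intervals for shares and 95% order-statistic intervals for medians. They cover counting error over peaks or gaps of 1 list, which are not replicates of a strain. The lists held 7117 Δasf1 peaks and 7430 wild-type peaks before the rRNA repeats were removed. The 10 Δasf1 peaks removed there met no more than 1 wild-type peak each.

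Most of these Δasf1 peaks joined a single pair of wild-type peaks. There were 558 that joined 2, 45 that joined 3, 6 that joined 4 and 1 that joined 5. Of the other Δasf1 peaks, 5689 lay on 1 wild-type peak and 808 on none. Since the regions were chosen by the overlap of measured peak positions in both strains, these counts describe the selection and test nothing. The members just inside the limit shared 8, 12, 13, 14 and 15 bp with the wild-type peak they overlapped least, and the nearest peaks left outside stopped 15, 29, 34, 36 and 49 bp short of a further wild-type peak. In 49 members the smallest overlap was under 100 bp, while 7 of the 5689 peaks on 1 wild-type peak came within 100 bp of a further one.

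Joining was not a one-way difference. In the opposite direction, 709 wild-type peaks each joined 2 or more Δasf1 peaks, or 9.55% of the wild-type list. Of the 1319 joining peaks of both strains, 46.2% (43.6 to 48.9%) were Δasf1 peaks. This share fell to 41.9% when at least 50% of each joined peak had to lie in the joining one. Among peaks at or above the median −log10 q of each list it was 47.9% (42.7 to 53.1%), an interval that includes 50%. Both lists thus held peaks that run across several peaks of the other strain. Fewer of them were in the Δasf1 list by the rule used, a difference less clear among the peaks of higher −log10 q. The wild-type list also covered more sequence, 16.6 Mb against 14.8 Mb.

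The joining Δasf1 peaks were wide. Their median width was 4534 bp (4322 to 4736 bp), with a range of 1328 to 20719 bp, against a median of 1505 bp for the Δasf1 peaks on 1 wild-type peak and 1634 bp for all wild-type peaks. The wild-type peaks that were joined had a median of 1698 bp. Width grew with the number joined, since a peak must span what it joins. The median was 4322 bp for peaks joining 2, 7699 bp for those joining 3 and 11488 bp for those joining 4, and the peak that joined 5 was 17977 bp wide. Among Δasf1 peaks of 8000 bp or more, 71.6% joined wild-type peaks, against 0.541% of those under 2000 bp. Wild-type peaks of the same widths joined Δasf1 peaks in 70.8% and 0.363% of cases.

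**Figure D1:**
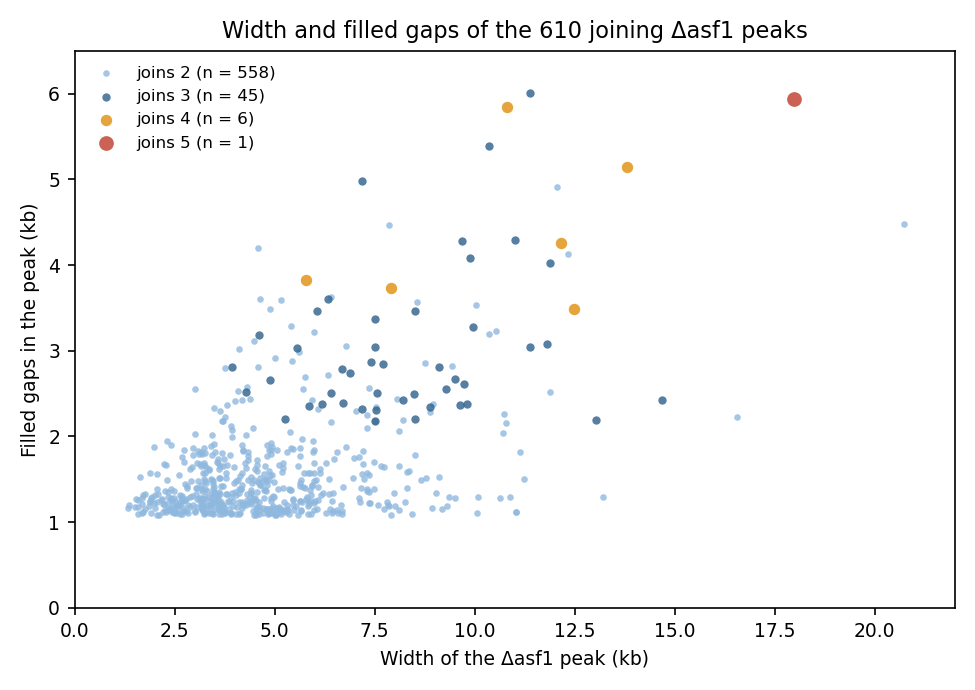
Each point is 1 of the 610 joining Δasf1 peaks, with its width in kb on the horizontal axis and the summed length of its filled gaps in kb on the vertical axis, coloured by the number of wild-type peaks joined. No peak has less than 1084 bp of filled gap, the smallest gap in the wild-type list, and the widest peak, at 20719 bp, joins only 2 wild-type peaks.

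Most of a joining peak was sequence that was already under wild-type peaks. The 610 peaks covered 3.10 Mb, which was 21.0% of the 14.8 Mb under Δasf1 peaks. Of these bases 62.1% lay under the joined wild-type peaks, 32.9% in the filled gaps and 5.09% beyond the outermost wild-type edges. In a single peak the filled share ranged from 9.77 to 94.7% of its width, with a median of 34.1%. The filled gaps came to 1019 kb in all.

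The joining peaks did not as a rule reach farther than the wild-type peaks they joined. The stretch from the first to the last edge of the joined wild-type peaks had a median of 5852 bp (5590 to 6086 bp), and 456 of the 610 Δasf1 peaks were narrower than that stretch. The Δasf1 peaks extended past the outer wild-type edges by a median of 7 bp, whereas the outer wild-type peaks extended past the Δasf1 peak by a median of 925 bp. Only 501 of the 1280 joined wild-type intervals, or 39.1%, lay wholly inside the joining peak. In 248 of the Δasf1 peaks both edges were crossed by wild-type peaks, in 283 only 1 edge was, and in 79 all joined wild-type peaks lay inside. For 169 of the 610, or 27.7%, a joined wild-type peak also met a second Δasf1 peak, so that the same acetylated stretch was divided at different places in the 2 strains.

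The enrichment of the joining peaks was close to that of other peaks. The fold enrichment, which is the linear ratio of signal to local background averaged over each peak, had a median of 1.27 in the joining peaks (range 1.16 to 1.42) and 1.26 in the Δasf1 peaks on 1 wild-type peak. The mean fold of the wild-type peaks that each member joined had a median of 1.25. The median −log10 of the q-value was 2.95 in joining peaks and 2.70 in those on 1 wild-type peak. Folds of the 2 lists were set by separate peak calls, so only their ranks were compared across strains. A joining peak stood at a median percentile of 59.9 in the Δasf1 list. The mean percentile of the wild-type peaks it joined had a median of 52.6 in theirs. The second value averages several peaks per member, which draws it towards the middle, so the 2 are not like measures.

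Since the regions were chosen for overlapping peaks of the other strain, few can be expected in the authors' lists of unique peaks, which hold 920 of the 7117 Δasf1 and 1389 of the 7430 wild-type peaks. Of the 610 joining peaks 8 were in the unique Δasf1 list, and of the 1267 joined wild-type peaks 43 were in the unique wild-type list.

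The region with the most joined peaks was on chromosome 1, at 2551308-2569284. A single Δasf1 peak of 17977 bp, with a fold of 1.26, covered 5 wild-type peaks of 3963, 1200, 1846, 2784 and 942 bp, and filled gaps of 1314, 1726, 1221 and 1680 bp between them. The wild-type folds there were 1.28, 1.18, 1.23, 1.25 and 1.31 in order along the chromosome. These folds come from separate peak calls and are given side by side only. The Δasf1 peak also began 1328 bp before the first wild-type peak. It overlapped the genes SMAC4_05978, SMAC4_05976, SMAC4_05975 and SMAC4_05974, and the gaps of 1314 and 1726 bp both lay inside SMAC4_05976, a gene of 7973 bp. All of SMAC4_05976 was under Δasf1 peaks, against 61.9% under wild-type peaks. Genes are named by locus tag here, because the gene table used gives no product names.

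A peak at chromosome 2, 1016328-1027143, joined 4 wild-type peaks of 1197, 391, 2390 and 1256 bp across gaps of 1445, 2017 and 2385 bp. Filled gap made up 5847 bp of its 10816 bp, and it overlapped SMAC4_07834 and SMAC4_07833. It lies between the duplicated parts of the chromosome and not in them. At chromosome 3, 2092712-2106524, a peak of 13813 bp joined wild-type peaks of 3012, 345, 934 and 3530 bp over SMAC4_07069, SMAC4_07068 and SMAC4_07067. The gaps of 1201 and 1336 bp were inside SMAC4_07069, which was 92.6% under Δasf1 peaks and 48.6% under wild-type peaks. A far smaller peak of 5787 bp at chromosome 3, 337568-343354, also joined 4, but only 1964 bp of it lay under wild-type peaks, because the outer ones reached 3186 bp beyond its ends.

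The longest total of filled gap was 6011 bp, in a peak at chromosome 2, 4487021-4498409. Its gaps were 4276 and 1735 bp, and the wild-type peaks on its flanks, of 6605 and 6698 bp, extended 8966 bp past it. In this region the outer wild-type peaks ran past the joining Δasf1 peak, which filled the interior. At least 1 of these outer wild-type peaks also met a further Δasf1 peak, so the outer stretch was not free of Δasf1 peaks. The longest single filled gap, 4905 bp, lay in a peak at chromosome 6, 1448280-1460339, with a fold of 1.30. That peak joined 2 wild-type peaks that were wholly inside it and overlapped 6 genes, from SMAC4_06050 to SMAC4_06055.

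The widest Δasf1 peak of the genome was among the joining ones. It spanned 20719 bp at chromosome 1, 8745515-8766233, had a fold of 1.30 and joined wild-type peaks of 5818 and 13030 bp across a gap of 4480 bp. The whole peak lay inside SMAC4_04816, which at 35057 bp is the longest protein-coding gene of the table. A second joining peak in the same gene filled a further gap of 1702 bp. Of SMAC4_04816, 88.0% was under Δasf1 peaks and 68.6% under wild-type peaks.

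**Figure D2:**
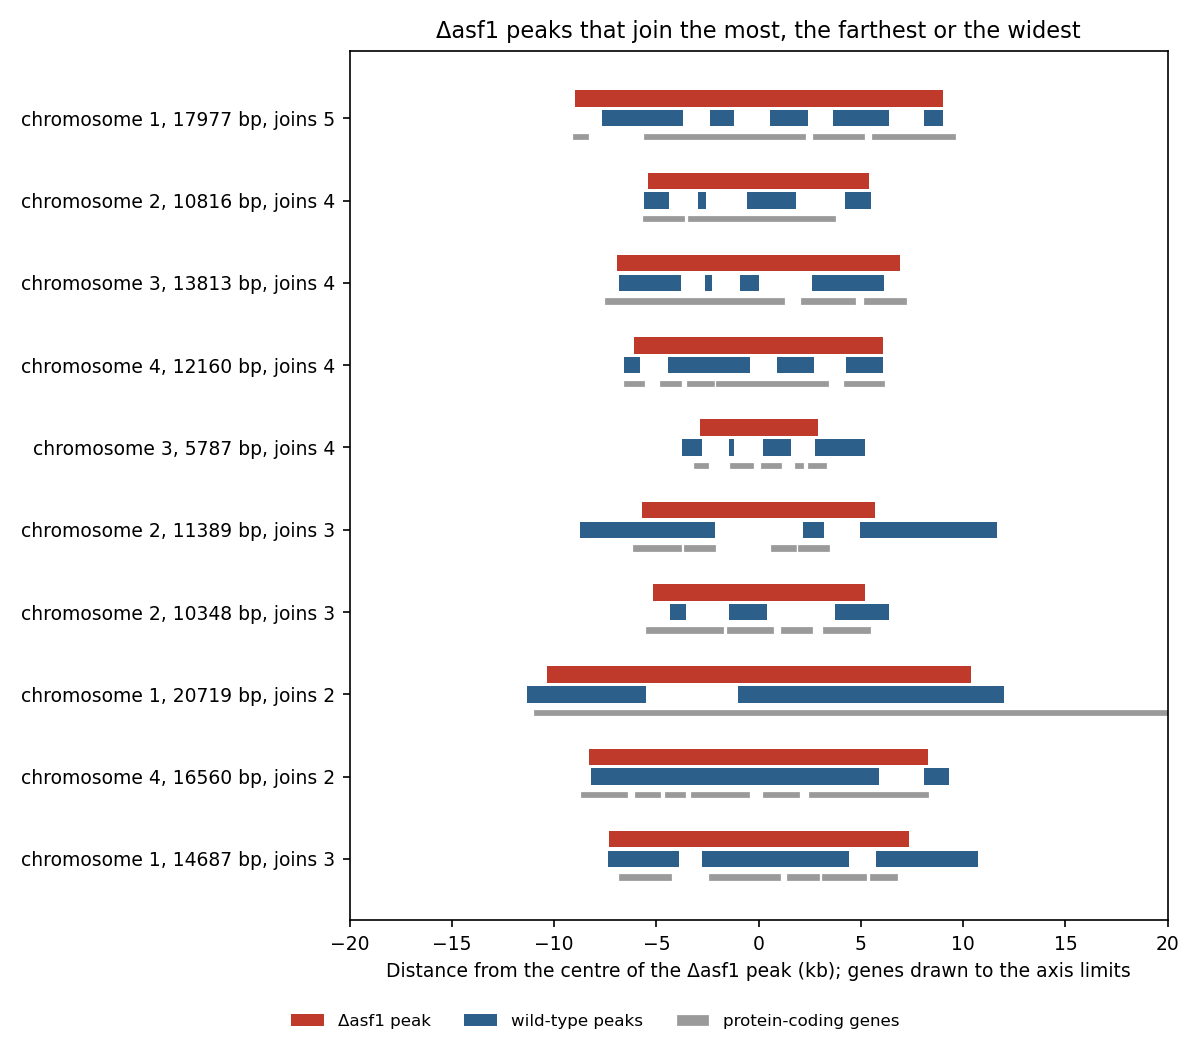
Each row shows 1 Δasf1 peak (red) over the wild-type peaks it joins (blue) and the protein-coding genes it overlaps (grey), with the distance from the centre of the Δasf1 peak in kb on the horizontal axis. The rows are the peaks that join the most wild-type peaks, fill the longest gaps or are widest outside the duplicated parts of chromosome 2, and the 20719 bp peak lies wholly in 1 gene that runs past the axis limit.

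Whether a gap was filled went with its length. The rule sets this in part, since a peak must be longer than a gap to bridge it. The filled gaps had a median of 1333.5 bp (1302 to 1361 bp) and a range of 1084 to 4905 bp, while the 6749 gaps that were not filled had a median of 2432 bp. Neither list held neighbouring peaks closer than 1066 bp in Δasf1 or 1084 bp in the wild type, so shorter gaps could not be seen. Of the 7419 gaps between neighbouring wild-type peaks, 9.03% were bridged by 1 Δasf1 peak, and of the 7100 gaps between Δasf1 peaks, 11.2% were bridged by 1 wild-type peak. Δasf1 peaks bridged 28.3% of wild-type gaps under 1200 bp, 19.1% of those from 1200 to 1500 bp, 11.3% of those from 1500 to 2000 bp, 4.34% of those from 2000 to 3000 bp and 1.33% of those from 3000 to 5000 bp. None of the 1096 wild-type gaps of 5000 bp or more was bridged, which allows a share of up to 0.349%. Wild-type peaks bridged 37.0, 23.4, 17.3, 7.43 and 2.40% of Δasf1 gaps in the same length classes, above the Δasf1 value in each class.

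**Figure D3:**
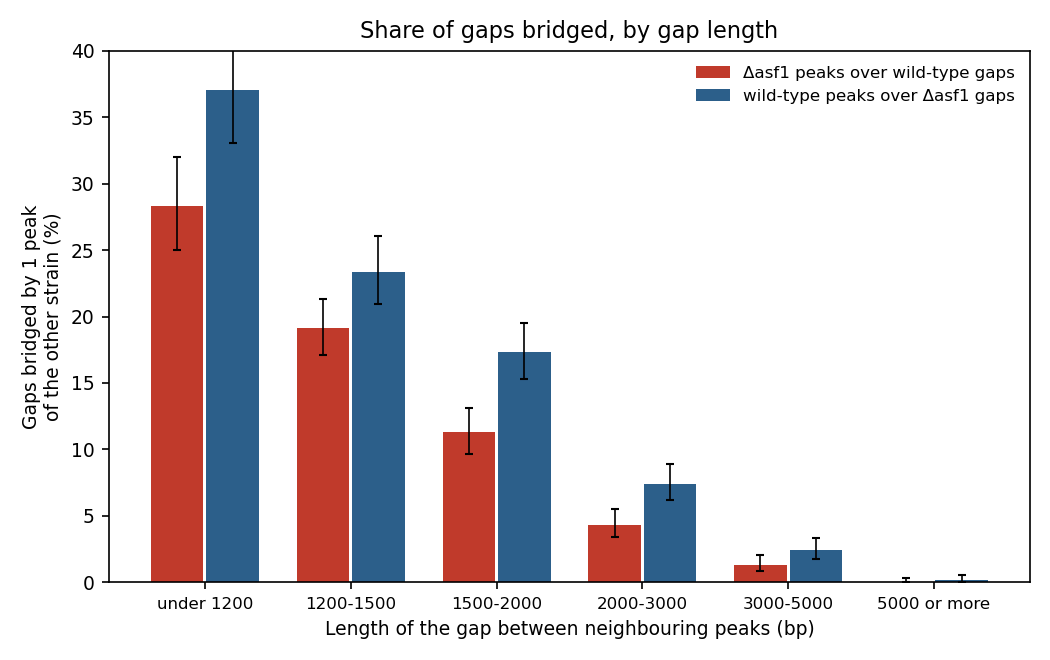
Bars give the percentage of gaps in each length class (bp) that 1 peak of the other strain bridges, for Δasf1 peaks over wild-type gaps (red) and wild-type peaks over Δasf1 gaps (blue), and error bars are 95% Wilson intervals. Both shares fall with gap length, with 28.3% for Δasf1 and 37.0% for wild-type peaks under 1200 bp, and 1.33 and 2.40% between 3000 and 5000 bp.

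The wild-type peaks beside filled gaps were close in fold and width to those beside other gaps. The weaker of the 2 flanking wild-type peaks had a median fold of 1.2314 (1.2284 to 1.2347) at filled gaps. At gaps under 5000 bp that were not filled it was slightly lower, 1.2269 (1.2259 to 1.2279), and these intervals do not overlap. The narrower flanking peak had a median width of 1044.5 bp at filled gaps and 1042 bp at the others. Neither comparison was weighted by gap length.

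The filled gaps lay mostly in genes. Of the 670 gaps filled in Δasf1, 70.3% (66.7 to 73.6%) were centred in a protein-coding gene, against 42.0% (40.7 to 43.3%) of the 5653 gaps under 5000 bp that were not filled, or 43.3% when those were weighted to the lengths of the filled ones. The difference was present in all 5 length classes. For gaps under 1200 bp the shares were 66.1% in filled gaps and 50.3% in the others, and from 2000 to 3000 bp they were 73.0 and 39.1%. In the class from 3000 to 5000 bp, with 21 filled gaps, they were 66.7% (45.4 to 82.8%) and 43.6% (41.1 to 46.1%), and these intervals overlap.

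By the rule a filled gap lies under a Δasf1 peak, so its gene share has to be read beside that of peaks in general. Of the bases under all Δasf1 peaks 78.4% were in protein-coding genes, of those under wild-type peaks 71.4%, and of the whole sequence 58.0%. The bases of the gaps filled in Δasf1 were 74.9% genic, below the 78.4% of all Δasf1 peaks, and those of the unfilled gaps 49.0%. The gaps that wild-type peaks filled between Δasf1 peaks were set out in the same way. Of these 797, 52.3% (48.8 to 55.8%) were centred in a gene, against 42.1% of the Δasf1 gaps under 5000 bp that were not filled (45.3% weighted by length). Of their bases 60.5% were genic, against 50.3% in the unfilled gaps and 71.4% under all wild-type peaks. The gene share of the filled gaps was thus 70.3% where Δasf1 peaks did the joining and 52.3% where wild-type peaks did. Each filled gap lies under a peak of the joining strain by the rule. The lists already differed in genic bases, with 78.4% under Δasf1 peaks and 71.4% under wild-type peaks. The contrast therefore describes the selection in part, and a difference between the strains was not tested.

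**Figure D4:**
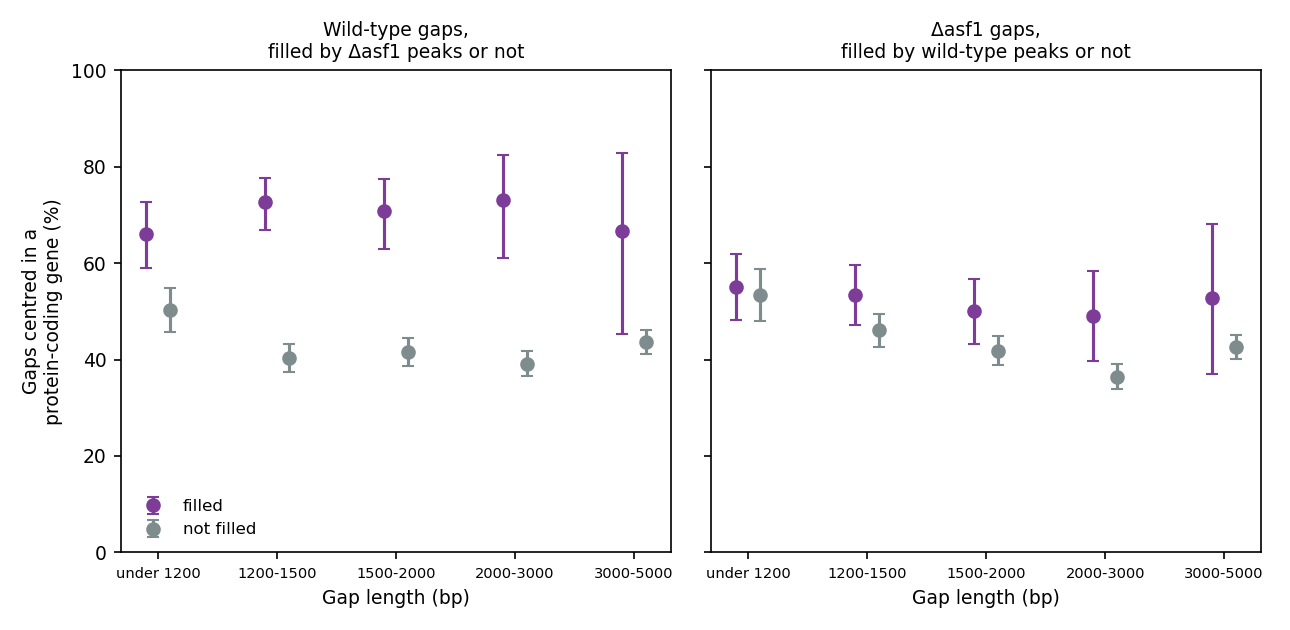
Points give the percentage of gaps centred in a protein-coding gene by gap length (bp), for filled (purple) and unfilled (grey) gaps, with 95% Wilson intervals, and the panels show wild-type gaps filled by Δasf1 peaks (left) and Δasf1 gaps filled by wild-type peaks (right). On the left the filled gaps are at 66.1 to 73.0% in every class and the unfilled ones at 39.1 to 50.3%, while on the right the sets lie closer together.

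Many of the filled gaps were interior to 1 gene. Of the 670, 265 or 39.6% (35.9 to 43.3%) lay wholly in a single gene, against 14.3% of unfilled gaps weighted to the same lengths. Gaps that wild-type peaks filled lay wholly in 1 gene in 16.6% of cases, against 14.9% of unfilled Δasf1 gaps weighted by length. Filled gaps crossed the edge of only 1 gene in 134 of 670 cases (17.1 to 23.2%), against 35.2% of unfilled gaps after weighting, and lay between genes in 6.27% (4.67 to 8.37%), against 13.8%. They crossed the edges of 2 genes in 31.3%, against 33.4%. Filled gaps lie under Δasf1 peaks by the rule, while only 13.1% of the bases of unfilled wild-type gaps under 5000 bp do. The bases of Δasf1 peaks were 78.4% genic, so the contrasts with unfilled gaps describe the selection in part. The gene table has no strand, so gene starts and ends were not told apart.

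The 265 gaps inside genes fell in 257 genes, which are long. Their median length was 4182 bp, against 1927 bp for all 10309 protein-coding genes, but the 513 genes that held an unfilled gap whole were as long, with a median of 4188 bp. The centre of the gap was a median of 37.7% of the gene's length from the nearer gene end in filled gaps. In unfilled gaps it was 39.3%. Only gaps lying wholly in a gene were counted, and none was shorter than 1084 bp, which keeps their centres away from gene ends. The distances therefore describe the selection in part, and a placement towards the middle of genes was not tested. A median of 85.6% (83.6 to 88.0%) of each of the 257 genes was under Δasf1 peaks, against 53.2% (50.3 to 55.3%) under wild-type peaks, and 101 of the 257 were at least 90% under Δasf1 peaks. The share was larger under Δasf1 peaks in 246 of the 257 genes and smaller in 11, such as SMAC4_00226, with 59.3% under Δasf1 peaks and 69.3% under wild-type peaks. The genes were chosen for holding a wild-type gap that a Δasf1 peak fills, which favours this direction, so these values describe the selection. The genes that held only unfilled gaps were 37.5% under Δasf1 peaks and 44.0% under wild-type peaks at the median, and all protein-coding genes 51.6 and 54.0%. Genes with only unfilled gaps were likewise chosen by both lists, for a wild-type gap that no Δasf1 peak fills, which favours lower Δasf1 cover.

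There were 8 genes that held 2 filled gaps each, namely SMAC4_04816, SMAC4_05976, SMAC4_07069, SMAC4_08775, SMAC4_00362, SMAC4_09359, SMAC4_07029 and SMAC4_04444. The lowest wild-type cover among them was in SMAC4_04444 on chromosome 2, a gene of 4595 bp that was 84.0% under Δasf1 peaks and 23.7% under wild-type peaks. SMAC4_07029, also on chromosome 2 and 4847 bp long, was wholly under Δasf1 peaks and 52.2% under wild-type peaks. SMAC4_08775 on chromosome 7 had the highest wild-type cover of the 8, with 94.3% under Δasf1 peaks and 71.5% under wild-type peaks.

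A joining peak overlapped a median of 2 protein-coding genes. There were 210 that overlapped 1 gene, 220 that overlapped 2, 106 that overlapped 3 and 61 that overlapped 4 to 6. In all 1233 genes were touched, out of 10309 in the table, against 7901 for any Δasf1 peak. Exactly 1 gene was overlapped by 34.4% of joining peaks and by 71.2% of Δasf1 peaks on 1 wild-type peak. No gene was overlapped by 2.13 and 9.35% of them. The joining peaks were wider, and width was not held equal in this comparison. The 13 joining peaks without a gene were shorter, with a median of 3125 bp, and each joined 2 wild-type peaks.

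Genes for tRNA, which RNA polymerase III transcribes, were seldom under peaks of any kind. Joining peaks overlapped 5 of the 445 tRNA genes, all Δasf1 peaks 24 and wild-type peaks 54. The 5 were 20.8% of the 24, close to the 21.0% of bases under Δasf1 peaks that the joining peaks make up. A filled gap lies under a Δasf1 peak by the rule, and 2 of the 670 filled gaps held a tRNA gene, or 0.299% (0.0819 to 1.08%), against 2.85% of unfilled gaps after weighting by length. The opposite direction gave a similar picture, with 0.502% of the gaps filled by wild-type peaks and 2.83% of the unfilled Δasf1 gaps. The joining peaks that overlapped tRNA genes were on chromosomes 1, 2, 4 and 5 and were 3595 to 9111 bp wide.

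Joining peaks occurred on all 7 chromosomes. Their share of Δasf1 peaks was 9.45% on chromosome 1, 9.38% on chromosome 2, 7.71% on chromosome 3, 7.45% on chromosome 4, 9.21% on chromosome 5, 7.95% on chromosome 6 and 8.02% on chromosome 7. The Wilson intervals of these shares all overlap. In 51 cases 2 joining peaks were direct neighbours in the Δasf1 list. The longest run held 4, on chromosome 4 from 1170292 to 1204615, with widths of 2629, 1690, 4840 and 12160 bp and 2, 2, 2 and 4 wild-type peaks joined. The peaks of that run overlapped the consecutive genes SMAC4_06489 to SMAC4_06481, but did not cover all of them throughout. Within 50 kb of a chromosome end, taken as the last gene or peak at the far side, lay 6 of the 610, or 0.984% (0.452 to 2.13%), against 1.44% of all Δasf1 peaks, which is within that interval.

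The parts of chromosome 2 that are duplicated in the Δasf1 strain, at 686748-916181 and 1076544-1262480, held 7 of the 610 joining peaks. This was 1.15% (0.557 to 2.35%), against a background of 1.04% of all Δasf1 peaks, which lies within that interval. The first part held 5 joining peaks among 41 Δasf1 peaks and the second 2 among 33. Wild-type peaks joined Δasf1 peaks in 3 of 40 and 2 of 34 cases there. Of the wild-type gaps under 5000 bp, Δasf1 peaks bridged 11.9% (5.87 to 22.5%) in the duplicated parts and 10.6% (9.85 to 11.4%) elsewhere.

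In the first part, the peak at 692842-699530 filled 1132 bp, the one at 736626-748513 filled 2517 bp, the one at 753695-756930 filled 1661 bp, the one at 758227-763186 filled 1190 bp and the one at 778215-782265 filled 1171 bp. In the second, the peak at 1083254-1087248 filled 1644 bp and that at 1088634-1095739 filled 1287 bp. Each of the 7 joined 2 wild-type peaks. The peak at 753695-756930 lay wholly in SMAC4_05561. Its neighbours along the chromosome overlapped SMAC4_05558 to SMAC4_05560 on one side and SMAC4_05562 and SMAC4_05563 on the other, so 3 joining peaks in a row met consecutive genes. The widest of the 7, 11888 bp long at 736626-748513, extended 3943 bp beyond the outer wild-type edges, close to the largest extension of any joining peak, 3973 bp.

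The peaks of the duplicated parts stood apart in significance relative to their fold. The 7 joining peaks had folds of 1.21 to 1.29 and −log10 q-values of 3.24 to 6.58, with medians of 1.23 and 4.02. The 392 joining peaks elsewhere within the same range of folds had −log10 q-values of 1.67 to 3.99 with a median of 2.67. The Δasf1 peaks of these parts that joined nothing lay in a like range. Within those folds, 31 of them had a median −log10 q of 4.67, against 2.46 for 3622 elsewhere. Wild-type peaks of that fold range were nearer to each other, with a median of 2.44 for 57 in the parts and 2.19 for 5178 elsewhere. The −log10 q of a peak rises with the number of reads behind it as well as with the fold, and read numbers were not analysed here, so their part in this difference was not tested.

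**Figure D5:**
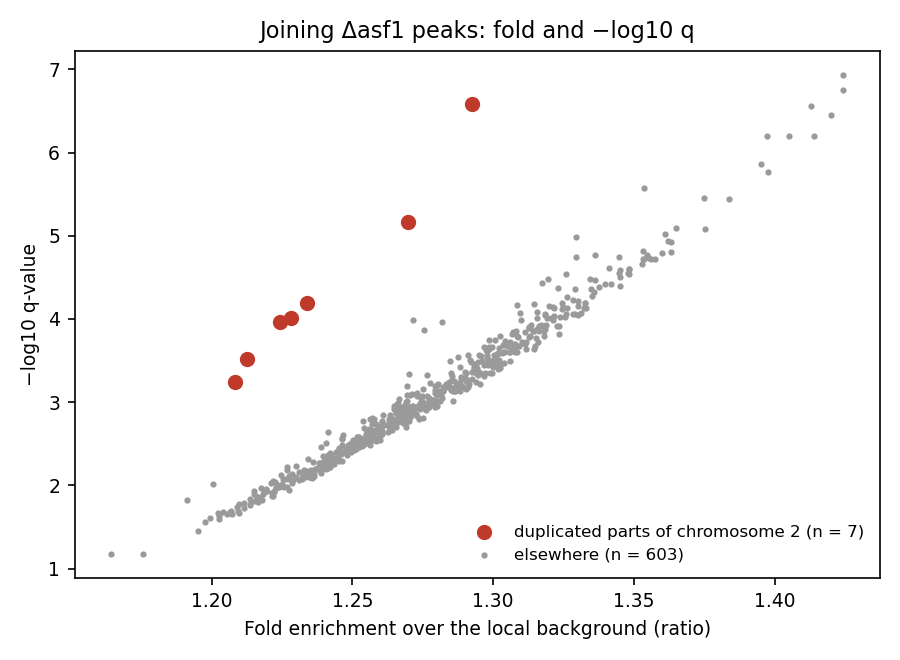
Each point is 1 joining Δasf1 peak, with its fold enrichment (a ratio) on the horizontal axis and the −log10 of its q-value on the vertical axis, red for the 7 in the duplicated parts of chromosome 2 and grey for the 603 elsewhere. The red points lie above the grey band at the same fold, at −log10 q-values of 3.24 to 6.58.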

How the data were processed

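H3K56ac was measured by chromatin immunoprecipitation and sequencing in mycelium, with 2 immunoprecipitated and 2 input samples per strain and 10 µl of antibody each. The submitters' processing notes name fastp, Bowtie2 and MACS2; versions, settings and genome build are not given in the sources used here. The authors deposited 4 peak lists, a pooled and a unique list per strain, with the columns that MACS writes for broad peaks. In the deposited lists the positions of each peak are followed by a score that is 10 times the −log10 q-value cut to a whole number, the fold enrichment (linear ratio of signal to local background), the −log10 p-value and the −log10 q-value. The authors' −log10 p-values and scores were not used, and the unique lists served only to count shared peaks. Read depth per sample is unknown.

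Overlaps, gaps and gene contexts were computed in Python 3.11.15 with pandas 2.3.3, numpy 2.4.6 and scipy 1.17.1, and figures were drawn with matplotlib 3.10.9. The overlap code was tested on simulated lists. A peak was placed in a duplicated part by its centre. Genes came from NCBI RefSeq's table for assembly ASM3387043v1, whose name differs from that of the lists' sequences. Peak cover and gene cover correlated at 0.321 for Δasf1 and 0.232 for the wild type without a shift, and at no more than 0.0301 and 0.0317 with the genes shifted by 5000 bp or more, so both were used on the same positions. That table gives no strand and no products, so the lists of genes by product that had been planned could not be applied, except tRNA genes, and no sequence is shown. The asf1 locus was not examined. Unfilled gaps were compared under 5000 bp and weighted to the length classes of the filled gaps.

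No test between strains was made, because each strain has 1 list. The peaks named are those joining the most wild-type peaks, those with the longest filled gaps and the widest, with up to 3 per duplicated part; the peak with the longest single gap, the run of 4 neighbours, the other 2 peaks of the duplicated parts and the genes with 2 filled gaps were named after their values were seen. The members and lists were chosen with earlier results of these data known. Alternatives changed the overlap that counts, the threshold of the lists, the distance at which peaks count as separate, the bounds of the duplicated parts and the class of genes.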

Additional observations from a re-analysis of the deposited data

How the results depend on the processing

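The number of joining Δasf1 peaks depended on the overlap asked for and on the threshold of the lists. It was 610 as reported, 330 when at least 50% of each wild-type peak had to lie in the Δasf1 peak, 103 when all of it had to, and 169 among peaks at or above the median −log10 q of each list. The share of wild-type gaps bridged was 8.37% with an overlap of at least 100 bp, 4.92% and 1.54% under the 50% and whole requirements, and 4.75% above the list medians. Δasf1 peaks made up 41.9% and 36.9% of the joining peaks of both strains under the 50% and whole requirements. Above the list medians they made up 47.9% (42.7 to 53.1%). Median width was 5389.5 bp under the 50% requirement, 5853 bp under the whole requirement and 5125 bp above the list medians, where the median filled gap was 1297 bp. Under the whole requirement 3 of 103 joining peaks, or 2.91% (0.995 to 8.22%), were in the duplicated parts of chromosome 2, against 1.04% of all Δasf1 peaks. Above the list medians 3 of 169 joining peaks, or 1.78%, were in these parts, against 1.86% of all Δasf1 peaks. The share of filled gaps centred in protein-coding genes was 70.3 to 71.1% under every alternative run for it, against 41.7 to 45.3% for unfilled gaps. Of 65 alternative values, 47 stayed within the interval of the reported one or within 1.5 times its count, and 18 moved. Some of the 47 could not move, so the tally is no measure of stability. The overlap asked for does not enter the share of all Δasf1 peaks in the duplicated parts. The 500 bp setting had nothing to join, and the rRNA peaks left out met no more than 1 wild-type peak each. Keeping the rRNA repeats left 610 joining peaks, and joining peaks under 500 bp apart changed nothing, since no neighbours were that close. No paired analysis was possible because each list is a single set of peaks without replicate columns, so leaving out a replicate could not be done either. Read depth, which bears on how far a broad peak extends, is unknown for both strains, and its part in the joining was not tested.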
